A study of Mus musculus with 7 samples.

Results

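Interferon response genes were examined in single-cell RNA libraries of mouse liver, as a set of 9 named genes (Irf1, Irf7, Isg15, Ifit1, Ifit3, Iigp1, Gbp2, Igtp and Irgm1) out of 32285 genes measured. All 9 were found by symbol in each of the 7 libraries, which held 40214395 to 132485391 UMIs (unique molecular identifiers, which tag single transcripts). The study built a liver tumor model on a C57BL/6J background, called ABC-Myc. Its mice carry the allele Alb-Cre+/wt, with Cre under the albumin promoter, together with the allele CAG-MYC+/wt. In the latter, Cre removes a stop before human MYC, and the paper describes this step as specific to hepatocytes. Which cell classes expressed the transgene was not tested here. Libraries NEJ634, NEJ687, NEJ709 and NEJ723 were tumors of this model, taken from dissociated tumor tissue after perfusion with collagenase. Libraries NEJ638, NEJ654 and NEJ677 were the healthy livers. The study's controls were littermates that lacked one or both transgenes, but which genotype each healthy liver had, and the age of the mice, are not given in the sources used here. The labels describe all 7 libraries alike, as the tumor model, and give no groups. The title of one library is NEJ709 but its description names NEJ634, and the title was followed, so values given for NEJ709 rest on it. Libraries were therefore not treated as replicates, no test between the sets was made, and each library's value is given on its own.

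Interferons are secreted proteins that warn cells of infection. Type I interferons (alpha and beta) signal through Ifnar1 and Ifnar2 to a complex that holds Stat2 and Irf9 and binds the interferon-stimulated response element (ISRE) in promoters. Interferon gamma, made by T and NK cells, signals through Ifngr1 and Ifngr2 to factors that bind the gamma-activated site (GAS). The members hold 3 roles. Irf1 and Irf7 are transcription factors, of which Irf7 amplifies type I interferon production. Isg15 is a ubiquitin-like modifier, and Ifit1 and Ifit3 are antiviral proteins that act on viral RNA. Iigp1, Igtp and Irgm1 are immunity-related GTPases and Gbp2 is a guanylate-binding protein, and both families defend cells against intracellular pathogens. Ifit3 shares near-identical sequence with Ifit3b, so its counts are uncertain.

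Promoter sequences are shown for 4 members that hold different binding motifs, as the 250 bases before the RefSeq start (GRCm38.p6), 5' to 3' on the gene's strand. Capitals mark matches to the ISRE core GAAANNGAAA or the GAS core TTCNNNGAA, searched on both strands. Isg15 (chr4:156200819-156201068, minus strand) had 3 overlapping ISRE cores, and Ifit3 (chr19:34583279-34583528, plus strand) had 2 separate ones. Igtp (chr11:58199306-58199555, plus strand) had 1 core of each kind, and Irf1 (chr11:53769764-53770013, plus strand, the first of its entries) had a GAS core alone.
Isg15: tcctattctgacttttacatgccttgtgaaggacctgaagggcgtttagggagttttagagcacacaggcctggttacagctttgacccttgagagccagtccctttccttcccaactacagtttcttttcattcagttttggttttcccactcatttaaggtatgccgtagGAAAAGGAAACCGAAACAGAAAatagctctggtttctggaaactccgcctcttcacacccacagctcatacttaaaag
Ifit3: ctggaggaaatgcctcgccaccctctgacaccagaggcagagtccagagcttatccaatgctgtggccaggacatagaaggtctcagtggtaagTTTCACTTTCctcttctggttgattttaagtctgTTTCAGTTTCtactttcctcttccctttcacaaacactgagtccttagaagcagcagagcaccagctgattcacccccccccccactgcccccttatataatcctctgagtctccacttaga
Igtp: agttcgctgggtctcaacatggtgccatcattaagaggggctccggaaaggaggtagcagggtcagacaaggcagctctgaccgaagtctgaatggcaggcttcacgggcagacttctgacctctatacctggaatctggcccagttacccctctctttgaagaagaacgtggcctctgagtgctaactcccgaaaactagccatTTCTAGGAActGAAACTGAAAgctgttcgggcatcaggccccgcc
Irf1: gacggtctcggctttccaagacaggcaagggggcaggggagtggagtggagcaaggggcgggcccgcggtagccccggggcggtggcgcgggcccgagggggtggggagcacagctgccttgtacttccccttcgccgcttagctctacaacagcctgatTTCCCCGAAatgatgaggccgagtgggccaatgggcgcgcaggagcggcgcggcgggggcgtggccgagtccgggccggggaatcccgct

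Promoters of 8 members, all but Iigp1, were searched, and 6 of these 8 held an ISRE core: Isg15, Ifit1, Ifit3, Gbp2, Igtp and Irgm1. An ISRE core was present in 978 of all 32851 promoters of the same length (2.98%). A GAS core was present in Igtp and Irf1, against 2306 of all promoters (7.02%). The Irf7 window and the other Irf1 window held neither, which says only that these letters do not occur there. Irf1, Igtp and Irgm1 lie on chromosome 11, Ifit1 and Ifit3 on 19, Gbp2 on 3, Isg15 on 4 and Irf7 on 7. A match is a description of letters and not a measured binding site.

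After cell calling and filters, 72580 cells were analysed, 6716 to 17001 a library. Levels are UMIs summed over the cells of a class per 1000000 UMIs (CPM), with exact 95% Poisson intervals where given, which cover counting error only. Clusters were named from marker genes as "-like" classes, and 44.8% of cells stayed unnamed. In NEJ709, 12678 of 13945 cells fell in 1 unnamed cluster (cluster 35), in which haemoglobin made up 27.5% of UMIs. NEJ634 supplied 6006 hepatocyte-lineage-like cells, whereas NEJ709 and NEJ723 supplied 13 and 9, below the 20 cells required. The 4 tumors therefore do not hold the same mix of cells. Barcodes shared by 2 or more libraries made up 2.33% of analysed cells. The sharing was uneven, with 95 to 181 barcodes for each pair among NEJ654, NEJ677 and NEJ687, 97 for NEJ709 with NEJ723 and 10 to 65 for the other pairs. Leaving them out changed no count of members in the 8 groups of cells compared.

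Over all analysed cells, 8 of the 9 members were lower in every tumor library than in every healthy one, and 0 were higher. Iigp1 stood at 50.2 CPM in NEJ634, 10.5 in NEJ687, 4.98 in NEJ709 and 1.41 in NEJ723, against 166, 134 and 169.8 in NEJ638, NEJ654 and NEJ677. Irf7 stood at 36.6, 31.1, 39.0 and 18.3 CPM in the same 4 tumors and at 49.9, 165 and 128 in the healthy livers. Both genes separated the sets, Iigp1 by a wide gap and Irf7 by a narrow one. Free RNA (meant as RNA outside cells, from barcodes in a fixed range of ranks) held Iigp1 at 0.967 to 36.6 CPM in tumors. It held 32.9 to 132 in healthy livers. The 36.6 was in NEJ634, where this range also held barcodes over 500 UMIs, so its free RNA can include RNA of cells. Whole libraries stood at 0.549 to 1.37 times free RNA for Iigp1, except NEJ638 (5.05) and NEJ709 (5.15, on 1 UMI of free RNA). For Irf7 they stood at 0.956 to 2.15 times. Irgm1 was 11.8 to 19.8 CPM in tumors and 42.7 to 56.9 in healthy livers. Gbp2 was 2.41 to 12.0 against 25.4 to 33.6, and Ifit3 was 2.78 to 11.0 against 23.2 to 57.7. The remaining members were nearer to each other, with Irf1 at 36.4 to 88.8 against 90.0 to 135 (the intervals of NEJ634 and NEJ638 overlapped, at 86.5 to 91.2 and 85.7 to 94.5), Ifit1 at 5.75 to 10.5 against 16.3 to 17.2 and Igtp at 5.33 to 13.2 against 20.9 to 28.8.

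The separation has to be read against its background. Among 10466 genes with a mean of at least 5 CPM, 35.2% were lower in every tumor library and 9.41% were higher, so position below all healthy livers was common. The median log2 ratio of tumor to healthy medians was -1.71 for the members and -0.48 for all genes. Scaling by TMM or by median-of-ratios reduced the members lower in every tumor from 8 to 5, leaving Ifit3, Iigp1, Gbp2, Igtp and Irgm1. The share of all genes that were lower was then 21.4% and 22.1%, and the share that were higher 27.7% and 27%. Irf1, Irf7 or Ifit1 also overlapped under 5 other settings, which left 6 or 7 members lower. Where it was counted, the share of all genes lower was then 32.0% to 35.8%. In sums over all cells, fewer cells of a type and less RNA per cell cannot be told apart. The 11 genes induced by tissue dissociation, such as Fos, Egr1 and Atf3, also separated the sets, with a sum of 1846 to 2798 CPM in tumors and 3194 to 4463 in healthy livers and 5 of the 11 lower in every tumor, and their part in the result was not tested.

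**Figure D1:**
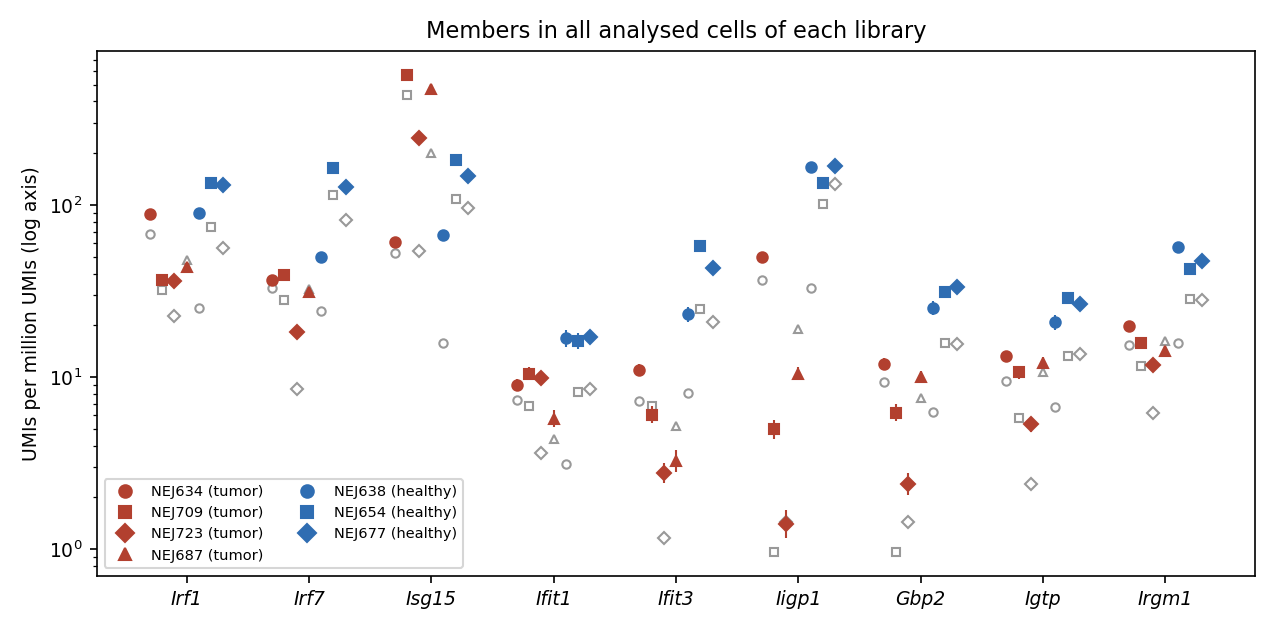
Levels of the 9 members over all analysed cells, in UMIs per 1000000 UMIs on a log axis, 1 point per library (4 tumor, 3 healthy). The tumor points of 8 members lie below all healthy points, while Isg15 spans 60.8 to 567 in tumors and 66.8 to 184 in healthy livers.

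Isg15 was the exception. It stood at 60.8 CPM in NEJ634, 474 in NEJ687, 567 in NEJ709 and 244 in NEJ723, against 66.8 in NEJ638, 184 in NEJ654 and 147 in NEJ677. NEJ687, NEJ709 and NEJ723 were above every healthy liver and NEJ634 was below all of them, and without NEJ634 Isg15 was the 1 member higher in every tumor, as were 10.4% of all genes.

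Red cell precursors carried Isg15 at a high level. Erythroid-like cells, named from markers such as Alas2 and Klf1, held 61.3% of all Isg15 UMIs in NEJ687 and 46.3% in NEJ723, but 12.7% in NEJ634, 11.8% in NEJ709 and 14.1% in NEJ638. Their share of all UMIs in these 5 libraries was 33.6%, 24.1%, 2.08%, 4.95% and 1.40%, below their share of Isg15 in each. NEJ654 and NEJ677 had 4 and 3 such cells. In NEJ709, 85.1% of the Isg15 UMIs lay in unnamed cells, which held 83.4% of all its UMIs. Those unnamed cells stood at 578 CPM and the whole library at 567, where its free RNA (RNA outside cells) held 434, so both were near free RNA (1.33 and 1.31 times). Within erythroid-like cells Isg15 stood at 372 CPM in NEJ634, 865 in NEJ687, 1354 in NEJ709 and 470.2 in NEJ723, and at 672 in NEJ638, the 1 healthy liver with enough such cells, in each case at least 3.12 times free RNA. The healthy value, from 73 cells, lay among the tumor values. Unnamed cells gave another order, at 93.1, 488, 578 and 353 CPM in NEJ634, NEJ687, NEJ709 and NEJ723. They stood at 65.3, 195 and 149.9 in NEJ638, NEJ654 and NEJ677. Haemoglobin made up 8.78% to 41.7% of their UMIs in tumors and 24.9% to 52.6% in healthy livers. Whether they were red cell precursors was not tested, so the sets are not read as alike in red cells. The lowest of the 5 libraries with enough erythroid-like cells was above the highest endothelial-like library (256), next in the order of class medians. It was below the neutrophil-like cells of NEJ654 (588) and NEJ677 (464).

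The other members divided in erythroid-like cells. Ifit3 was at most 0.812 CPM, Gbp2 at most 1.22 and Iigp1 at most 3.88. Irf1 was 3.30 to 4.21 in tumors and 19.8 (5 UMIs) in NEJ638. Ifit1, Irf7, Igtp and Irgm1 were nearer to free RNA. Ifit1 was 6.48 to 17.9 in tumors, at 1.49 to 4.77 times free RNA, and 3.95 (1 UMI) in NEJ638. Irf7 was 28.0 to 50.5 and 39.5 (0.861 to 3.31 times free RNA), Igtp 7.07 to 18.6 and 23.7 (1.36 to 3.55 times), and Irgm1 13.7 to 32.9 and 43.5 (0.844 to 2.95 times). Irf7 and Irgm1 lay below free RNA in NEJ687. Of the UMIs of Ifit1, Irf7, Igtp and Irgm1, erythroid-like cells held 42.2%, 37.2%, 32.0% and 37.0% in NEJ723, and 37.9%, 30.2%, 40.3% and 32.5% in NEJ687. Their share of all UMIs, given above, was below each of these in NEJ723. In NEJ687 it was below the shares of Ifit1 and Igtp but above those of Irf7 and Irgm1. Isg15 also differed between the 2 erythroid-like clusters. It was 1046 CPM in cluster 21, with 53.2% haemoglobin UMIs, and 332 in cluster 22, led by histone genes, with 25.7%. Cluster 21 was above cluster 22 in each of the 5 libraries that had both.

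**Figure D2:**
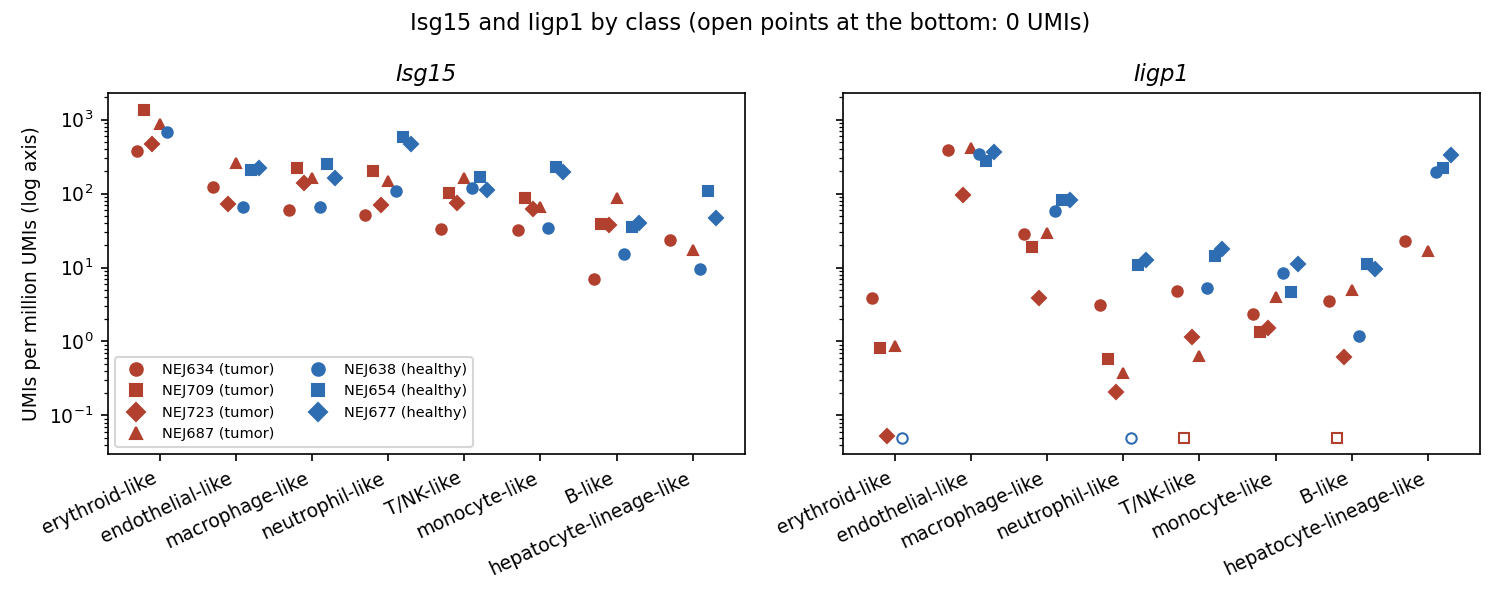
Isg15 and Iigp1 by cell class, in UMIs per 1000000 UMIs on a log axis, 1 point per library with at least 20 cells of the class; open points at the bottom mark 0 UMIs. Isg15 is highest by class median in erythroid-like cells, and Iigp1 in endothelial-like cells, with the healthy hepatocyte-lineage-like cells (195 to 329) far above the 2 tumors (16.6 and 23.0).

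Iigp1 stood far apart in hepatocyte-lineage-like cells, the lineage that the model's Cre targets. It stood at 195 CPM (interval 179 to 213) in NEJ638, 220.1 (199.8 to 242) in NEJ654 and 329 (309.9 to 348) in NEJ677. In the tumors it stood at 23.0 (21.2 to 24.9) in NEJ634 and 16.6 (13 to 20.8) in NEJ687. These intervals did not overlap. The free RNA (ambient, from barcodes in a fixed range of ranks) held 36.6 CPM in NEJ634 and 19.1 in NEJ687. The tumor values were thus at or below free RNA, while the healthy values were 2.18 to 5.94 times theirs. In NEJ634 this range held barcodes over 500 UMIs, because 67059 barcodes passed the UMI and mitochondrial limits. These were 9130 in NEJ687 and 7122 to 8230 in the healthy livers. The free RNA of NEJ634 can therefore include RNA of cells, and ratios to it are not like those of other libraries. The 5.94 was in NEJ638, where 56.5% of free RNA UMIs were mitochondrial but 7.14% of those in these cells. A CPM of free RNA is thereby lower for other genes in NEJ638, and ratios to it are higher.

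The same held for the share of cells. With cells thinned to 1000 UMIs, Iigp1 was seen in 20.7% of such cells in NEJ638, 16.3% in NEJ654 and 27.4% in NEJ677, and in 2.15% in NEJ634 and 0.901% in NEJ687. Cells under 1000 UMIs had to be left out, and these were 31, 194 and 269 in the healthy livers (beside 304, 331 and 661 used), 0 in NEJ634 (6006 used) and 65 in NEJ687 (222 used). In NEJ634 calling stopped at 20000 tested barcodes, so shallower ones were not tested, unlike in NEJ687 and the healthy livers. The unthinned shares were 63.0%, 41.1%, 50.3%, 7.64% and 11.8%. T/NK-like cells, which served as a background, gave 0 to 2.37% after thinning. The median depth was 1614 to 11040 UMIs in hepatocyte-lineage-like cells and 1642 to 7725 in T/NK-like cells. With only 2 tumor libraries no count over members was made here. Healthy cells lay in clusters 18 and 36 and tumor cells mostly in cluster 3, and the part of that split in the result was not tested. Igtp (11.8 and 9.94 CPM in NEJ634 and NEJ687; 29.4, 25.1 and 13 in NEJ638, NEJ654 and NEJ677) and Irgm1 (17.8 and 15.7; 47.5, 31.3 and 27.7) were also lower in both tumors, where their free RNA stood at 9.55 and 10.7 CPM for Igtp and at 15.4 and 16.2 for Irgm1. In NEJ677 both genes were also near free RNA (13.6 and 28.1), as was Irgm1 in NEJ654 (28.4). Ifit1 (2.93 and 0.663 against 5.65 to 18.5) and Ifit3 (3.20 and 0.221 against 3.68 to 21) were lower in both tumors too, with Ifit3 below free RNA in all 5 libraries. The other 4 members overlapped. Irf1 was 90.9 and 52.4 CPM in the tumors against 22.6 to 102 in the healthy livers, Irf7 14.5 and 4.2 against 11.7 to 29.8, Isg15 23.2 and 17.0 against 9.42 to 108, and Gbp2 5.94 and 2.21 against 3.59 to 4.52. Among all 9496 genes past the 5 CPM limit here, 20.6% were lower in both tumors and 34.3% higher.

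Endothelial-like cells carried Iigp1 at a high level in NEJ634, NEJ687 and the healthy livers, and at a lower one in NEJ723. It stood at 389.9 CPM in NEJ634, 413 in NEJ687 and 96.3 in NEJ723 (53 cells), against 347, 279 and 369 in NEJ638, NEJ654 and NEJ677. These cells held 44.5% to 60.9% of all Iigp1 UMIs in these 3 tumors and 43.3% to 68.8% in the healthy livers. Of the UMIs of all genes they held 4855197 of 61879534 in NEJ634, 730824 of 55166693 in NEJ687 and 509003 of 78119476 in NEJ723. In NEJ638, NEJ654 and NEJ677 they held 5920831 of 18001001, 4459372 of 21520376 and 6416169 of 27667621. They were thus a smaller part of each of these tumors than of any healthy liver, and the part of this in the Iigp1 of whole libraries was not tested. The lower Iigp1 of whole tumors was not seen in the endothelial-like cells of NEJ634 or NEJ687. Without NEJ723, Iigp1 was the 1 member higher in both remaining tumors, as were 16.4% of all genes.

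In this class 1 of 9 members was lower in every tumor library, where 25.1% of 10378 genes were lower and 10.8% higher (16.5% and 14.9% under median-of-ratios scaling, with 1 member lower). This was Gbp2, at 25.3, 26.0 and 19.6 CPM in NEJ634, NEJ687 and NEJ723 against 36.7, 30.0 and 46.9 in NEJ638, NEJ654 and NEJ677. With one library left out, and thus 2 libraries on its side, the count was 4 without NEJ634 or NEJ638 (31.8% and 31.7% of all genes) and 3 without NEJ654 or NEJ687 (29.5% and 33.9%). The median log2 ratio was -0.53 for members and -0.21 for all genes. Tumor cells of this class lay in cluster 7 and healthy ones in clusters 23 and 24. Their 10 endothelial markers summed to 3858 to 8358 CPM in tumors and 12377 to 14293 in healthy livers, and the part of this in the result was not tested.

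Macrophage-like cells had 4 of 9 members lower in every tumor library (Irf7, Iigp1, Igtp and Irgm1) and 0 higher, where 14.4% of 9555 genes were lower and 7.41% higher. Irf7 stood at 115 CPM (interval 108 to 122) in NEJ634, 157 (142 to 173) in NEJ687, 194 (154 to 241) in NEJ709 and 41.6 (31.3 to 54.3) in NEJ723. It stood at 244 (216 to 274) in NEJ638, 561 (534 to 589) in NEJ654 and 583 (552 to 616) in NEJ677. NEJ709 and NEJ638 were the nearest pair, with overlapping intervals, and the other healthy livers were far above. Every value was at least 3.48 times its ambient level. Irf7 was found in 9.98%, 14.9%, 21.2% and 4.64% of these tumor cells thinned to 1000 UMIs, against 17.7%, 43.5% and 44.2% of the healthy ones, so by share NEJ709 lay above NEJ638. The cells left out for depth were 0 in NEJ634, 254 in NEJ687, 19 in NEJ709 and 152 in NEJ723 (beside 2585, 368, 52 and 280 used), and 61, 612 and 189 in NEJ638, NEJ654 and NEJ677 (beside 339, 764 and 482). Calling had stopped at 20000 tested barcodes in NEJ634, NEJ709 and NEJ723. In hepatocyte-lineage-like cells the share was 0.987% to 2.72%. The median depth was 1124.5 to 2533 UMIs in macrophage-like cells and 1614 to 11040 in hepatocyte-lineage-like cells.

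The GTPases were nearer to background in these cells. Iigp1 was 3.85 to 29.3 CPM in tumors and 57.3 to 82.6 in healthy livers, but the free RNA of NEJ654 and NEJ677 held more of it (101 and 132). It was the 1 member whose intervals did not overlap between the nearest libraries. Igtp was 7.18 to 18.2 against 21.4 to 35.0, and Irgm1 11.6 to 40.7 against 42.8 to 51.3. TMM scaling left Irf7, Iigp1 and Irgm1 (11.6% of all genes lower and 9.67% higher), and median-of-ratios scaling left Irf7 and Iigp1, 2 of the 4 (11.3% and 10.1%). With the ambient profile subtracted, 5 members were lower, the same 4 and Ifit3, where 14.2% of all genes were lower. The ambient share was estimated from haemoglobin relative to free RNA, with 100% as its highest value (56.4% in NEJ634 and 70.6% in NEJ638). NEJ723 was at 100% and could not enter that count. Haemoglobin made up 13.2% of UMIs in its macrophage-like cells and 5.66% in its free RNA, so the estimate does not measure the share there. The count was 6 without NEJ638 (20.6% of all genes) and 6 without NEJ687 (16.7%).

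Other values moved with the sets in macrophage-like cells. The dissociation genes summed to 1462 to 3845 CPM in tumors and 7362 to 12403 in healthy livers, and 10 of the 11 were lower in every tumor. The 10 neutrophil markers summed to 16013 CPM in NEJ634 and 4548 in NEJ709, against 109.8 to 847 in healthy livers. Their sums in NEJ687 and NEJ723 are not printed here, so no separation of the sets is read from these markers. Healthy macrophage-like cells lay in cluster 8, whose leading genes include the Kupffer cell marker Clec4f, while tumor cells lay in clusters 9 and 29. Without cluster 29, and also at the finer clustering (resolution 2), Irf7, Iigp1 and Igtp stayed lower in every tumor and Irgm1 overlapped, where 10.4% and 9.82% of all genes were lower. Haemoglobin made up 3.30%, 3.54%, 5.03% and 13.2% of UMIs in NEJ634, NEJ687, NEJ709 and NEJ723, against 0.159% to 1.04% in healthy livers. The part of the dissociation genes, the neutrophil markers and haemoglobin in the result was not tested.

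**Figure D3:**
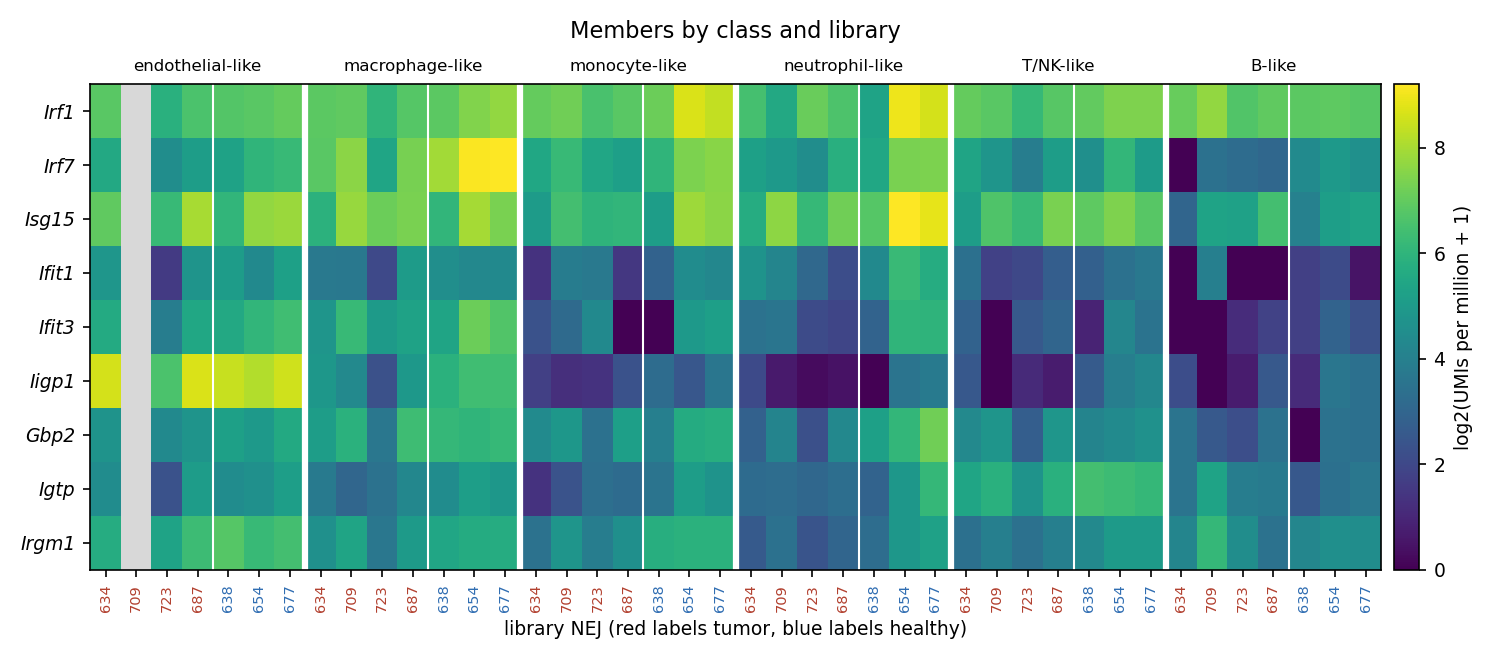
Levels of the 9 members (rows) in each library (columns, grouped by cell class, tumor libraries with red labels and healthy ones with blue), as log2(UMIs per 1000000 UMIs + 1); grey marks a class with too few cells in a library. In neutrophil-like and monocyte-like cells NEJ654 and NEJ677 stand above NEJ638 for Irf1 (499 and 391 against 39.2 in neutrophil-like cells), and Iigp1 is high in endothelial-like cells of both sets.

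Monocyte-like cells lay in a single cluster shared by all libraries (cluster 14). There 3 members were lower in every tumor (Iigp1, Igtp and Irgm1), where 5.56% of 8883 genes were lower and 11.6% higher, and 8 of the 9 members passed the 5 CPM limit, Iigp1 being the one that did not. TMM scaling left Iigp1 and Irgm1 (6.71% of all genes lower and 10.5% higher), and median-of-ratios scaling added Irf1 to the 3 (7.95% and 9.03%). Irgm1 stood at 10.2, 23.2, 27.1 and 13.9 CPM in NEJ634, NEJ687, NEJ709 and NEJ723, against 53.0, 58.3 and 57.8 in NEJ638, NEJ654 and NEJ677. The nearest libraries, NEJ709 and NEJ638, were 1.95-fold apart, but their intervals overlapped (16.6 to 41.9 and 34.3 to 78.3), and no member had intervals apart in this class. Igtp was 1.57 to 9.34 in tumors and 10.6 to 33.8 in healthy livers. It rested on 2 and 3 UMIs in NEJ634 and NEJ709 and on 5 in NEJ638. Against free RNA Igtp was 0.165, 0.777, 0.701 and 3.89 times in NEJ634, NEJ687, NEJ709 and NEJ723, and 1.58 to 2.54 times in healthy livers. Iigp1 was 1.36 to 3.99 against 4.60 to 11.1, all in healthy livers below the free RNA level of 32.9 to 132, which is read as background.

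The 3 healthy livers differed from each other in monocyte-like and neutrophil-like cells. Irf1 in monocyte-like cells was 138 CPM in NEJ638 but 414 in NEJ654 and 330.3 in NEJ677, beside 92.4 to 146 in tumors. Isg15 was 33.9 in NEJ638, 229 and 193 in the other two, and 32.2 to 86.8 in tumors. NEJ638 thus lay among the tumors for both genes. Dissociation genes summed to 5665 CPM in NEJ638, 9065 in NEJ654, 7592 in NEJ677 and 4389 to 6093 in tumors, and mitochondrial UMIs made up 7.56% in NEJ638 and 1.17% to 3.24% elsewhere. The part of these in the result was not tested. Without NEJ638, and thus against 2 healthy livers, all 9 members were lower in every tumor in monocyte-like cells, as were 11.3% of all genes. Without NEJ709 the count was 5 (7.31% of all genes).

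Neutrophil-like cells showed the same division. Irf1 stood at 39.2 CPM in NEJ638, 499 in NEJ654 and 391 in NEJ677, beside 87.9, 99.2, 45.7 and 136 in NEJ634, NEJ687, NEJ709 and NEJ723. Isg15 stood at 109, 588 and 464 in the healthy livers and 50.6 to 200.0 in tumors. Ifit3 stood at 6.53, 64.2 and 63.1, against 2.79 to 11.0. Gbp2 was the 1 of 9 members lower in every tumor, at 3.69 to 18.6 CPM against 37.0 to 145, where 15.5% of 7715 genes were lower and 17.0% higher (11.9% and 25% under TMM, with 1 member lower), and it overlapped when cluster 27 alone was taken. Without NEJ638, again against 2 healthy livers, the count was 9, where 28.9% of all genes were lower. Without NEJ634, NEJ687 or NEJ709 it was 2 (16.2% to 19.9% of all genes). Free RNA in NEJ638 was 56.5% mitochondrial, against 8.31% and 8.85% in the other healthy livers. Dissociation genes summed to 6671, 12665 and 17486 CPM in NEJ638, NEJ654 and NEJ677 and to 2515 to 4004 in tumors. Cluster 11, of maturing neutrophils by its genes Ltf, Camp and Ngp, was mostly tumor cells. The part of these in the result was not tested.

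T/NK-like cells had 3 of 9 members lower in every tumor (Iigp1, Igtp and Irgm1), where 4.86% of 8943 genes were lower and 3.48% higher. Igtp stood at 41.6 CPM (interval 27.2 to 61.0) in NEJ634, 56.4 (45.2 to 69.5) in NEJ687, 56.4 (35.8 to 84.6) in NEJ709 and 25.4 (19.6 to 32.2) in NEJ723. It stood at 87.0 (70.7 to 106) in NEJ638, 77.6 (65.3 to 91.5) in NEJ654 and 69.5 (59.9 to 80.1) in NEJ677. All 7 values were at least 4.36 times the ambient level, and the intervals of the nearest libraries overlapped. Iigp1 (0 to 4.80 CPM in tumors, 5.27 to 18.0 in healthy livers) was below the free RNA level in each healthy liver, and Irgm1 (9.61 to 14.7 against 19.3 to 31.4) was near it (15.9 to 28.4), so both are read as background. The count was 5 without NEJ634 (9.55% of all genes), 6 without NEJ638 (13.2%), 4 in cluster 25 alone (4.88%), where Isg15 was added, and 4 under TMM (5.42%) and median-of-ratios scaling (5.14%), where Irf1 was added. Dissociation genes were lower in every tumor for 5 of 11 here.

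B-like and conventional dendritic-like cells had 1 member lower each. In B-like cells Irf7 was the 1 member lower in every tumor (0 to 9.83 CPM against 20.2 to 30.6), where 4.05% of 9133 genes were lower and 5.80% higher (6.90% and 3.57% under TMM, with 1 member lower), and 6 members passed the limit. Its healthy values were at or below free RNA (24.2 to 114). The count was 3 without NEJ638 (9.11% of all genes) and 2 without NEJ687 or NEJ709 (6.44% and 6.11%), and 1 member was higher in every tumor without NEJ634, NEJ677 or NEJ723 (8.23% to 10.0% of all genes). In conventional dendritic-like cells Ifit3 was the 1 member (1.01 to 7.28 against 9.88 to 25.1), where 5.99% of 8926 genes were lower and 6.26% higher. These values rested on 1 to 4 UMIs in the tumors and 5 to 12 in the healthy livers, the healthy ones were 0.398 to 1.25 times free RNA, and the count was 0 at resolution 2 and with the ambient profile subtracted. The count was 4 without NEJ638 (11.8% of all genes) and 2 without NEJ634 (13.8%), and 3 members were higher in every tumor without NEJ677 (10.7%). Igtp and Ifit1 were high in a megakaryocyte-like cluster found in NEJ634 alone (51 cells), at 281 CPM (218 to 357) and 78.6 CPM (47.3 to 123), with free RNA at 9.55 and 7.33.

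The members also ranked the classes differently. By the median over libraries, Irf7 and Gbp2 were highest in macrophage-like cells (194 and 64.1 CPM), Ifit3, Iigp1 and Irgm1 in endothelial-like cells (47.1, 358 and 75.1), and Isg15 in erythroid-like cells (672). Igtp and Ifit1 were highest in the megakaryocyte-like cells of NEJ634, followed by T/NK-like (56.4) and endothelial-like cells (26.8). That class is 1 library, at 78.6 CPM for Ifit1, and the cholangiocyte-like cells of NEJ709 (42 cells) lay above it. There Ifit1 stood at 140.1 CPM (115 to 169), 20.7 times free RNA, beside 3.67 in NEJ634 and 14.4 in NEJ723. Irf1 was highest in plasmacytoid dendritic-like cells, a class found at the finer clustering only (226 to 592 in 5 libraries), followed by monocyte-like cells (92.4 to 414). For Irf1, Irf7, Ifit3, Iigp1, Gbp2 and Irgm1 the first class overlapped the next in its range over libraries. Over 65 sums of a class in a library, on log2(CPM + 10), the closest pairs of members were Irf7 with Gbp2 (r = 0.74), Ifit3 with Gbp2 (0.73) and Irf7 with Ifit3 (0.70). For Isg15 the value was 0.03 with Iigp1 and -0.12 with Irf1. The genes most like the mean of the 9 members, outside the lists used here, were Rnf31 (0.78), Gm34455 (0.78), Slc9a9 (0.76), Rnf213 (0.76) and Parp9 (0.75) of 8314 genes. These sums share libraries and depth, so the values are descriptions.

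The ligands were nearly absent except for Ifng. Of 3305 Ifng UMIs, 2893 lay in T/NK-like cells, where Ifng was 49.0 to 231 CPM in tumors and 265 to 402 in healthy livers. The other 20 interferon genes gave 214 UMIs in all and 12 of them gave 0. Ifnb1, which encodes interferon beta, gave 153 of these, with 42 in NEJ634, 59 in NEJ687, 7 in NEJ709 and 31 in NEJ723, and 1, 12 and 1 in NEJ638, NEJ654 and NEJ677. Of the 153, 76 lay in macrophage-like and 37 in monocyte-like cells. The counts by library are raw and were not scaled to depth. Analysed UMIs were 49818681 to 78119476 in the tumors and 18001001 to 27667621 in the healthy livers. NEJ654 gave its 12 Ifnb1 UMIs from 21520376, and NEJ709 its 7 from 49818681. No difference between the sets is read from these counts, and they are too few for levels by class.

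Receptors and signalling genes were lower in every tumor library for 5 of 12 genes in macrophage-like cells (14.4% of all genes) and higher for 0, with a median log2 ratio of -0.62 against -0.13 for all genes. Ifngr1, a chain of the interferon gamma receptor, was 108 to 175 CPM against 263 to 411. In endothelial-like cells 3 of 12 were lower, a share at that of all genes (25.1%), among them Irf9 (33.4 to 51.3 against 87.5 to 101) and Stat2 (30.3 to 43.8 against 67.7 to 78.1). In T/NK-like cells 2 of 12 were lower (4.86% of all genes). Among sensors and other regulatory factors, 7 of 14 were lower in macrophage-like cells, with the RNA sensor Ddx58 at 13.1 to 28.7 against 64.2 to 87.6. In endothelial-like cells 5 of 14 were lower and 3 higher (25.1% and 10.8% of all genes), though only 1 of the 3 passed the 5 CPM limit, and Irf8 was that gene (135 to 194 against 89.0 to 89.9). In the other list counts for macrophage-like, endothelial-like, monocyte-like, neutrophil-like and T/NK-like cells at most 1 gene was under that limit.

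Antiviral effectors were the longest list. In macrophage-like cells 24 of 30 were lower in every tumor library (14.4% of all genes) and 1 was higher, with a median log2 ratio of -1.58. Oas3, which senses double-stranded RNA, was 2.31 to 10.8 CPM against 32.5 to 66.5. In endothelial-like cells 16 of 30 were lower (25.1% of all genes), in monocyte-like cells 11 (5.56%), in T/NK-like cells 8 (4.86%) and in neutrophil-like cells 5 (15.5%). B-like cells had 4 lower and 2 higher (4.05% and 5.80%), and conventional dendritic-like cells 2 lower and 2 higher (5.99% and 6.26%). In these last 2 classes each other interferon list had at most 3 genes lower and 1 higher. Isg20, an RNA exonuclease, went the other way, at 31.1 to 146 CPM in tumors against 5.13 to 8.66 in macrophage-like cells, and 53.4 to 83.0 against 11.8 to 25.3 in endothelial-like cells. Ifitm3, which blocks viral entry, was 795 to 2467 against 3580.0 to 6158 in monocyte-like cells.

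Interferon-inducible GTPases outside the members were lower in every tumor for 7 of 14 in macrophage-like cells (14.4% of all genes) and 8 of 14 in endothelial-like cells (25.1%), and higher for 0 in both. Gbp4 was 0.771 to 5.56 CPM against 15.4 to 21.8 in macrophage-like cells and 22.9 to 45.2 against 79.4 to 92.1 in endothelial-like cells. Antigen processing and interferon gamma targets were lower for 3 of 14 in macrophage-like cells (14.4% of all genes), for 2 in endothelial-like cells, below the share of all genes (25.1%), and for 4 in neutrophil-like cells (15.5%). Among them was Tapbp, which helps load peptides, at 64.8 to 129 against 188 to 246 in macrophage-like cells. Of 6 genes that restrain the response, 3 were lower in macrophage-like cells (14.4% of all genes), among them Usp18, which removes Isg15 from proteins (0 to 9.09 against 18.8 to 30.1). In endothelial-like cells Socs3 was higher in every tumor (86.4 to 108 against 34.5 to 40.2) and Socs1 lower (5.89 to 45.2 against 51.5 to 72.5).

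**Figure D4:**
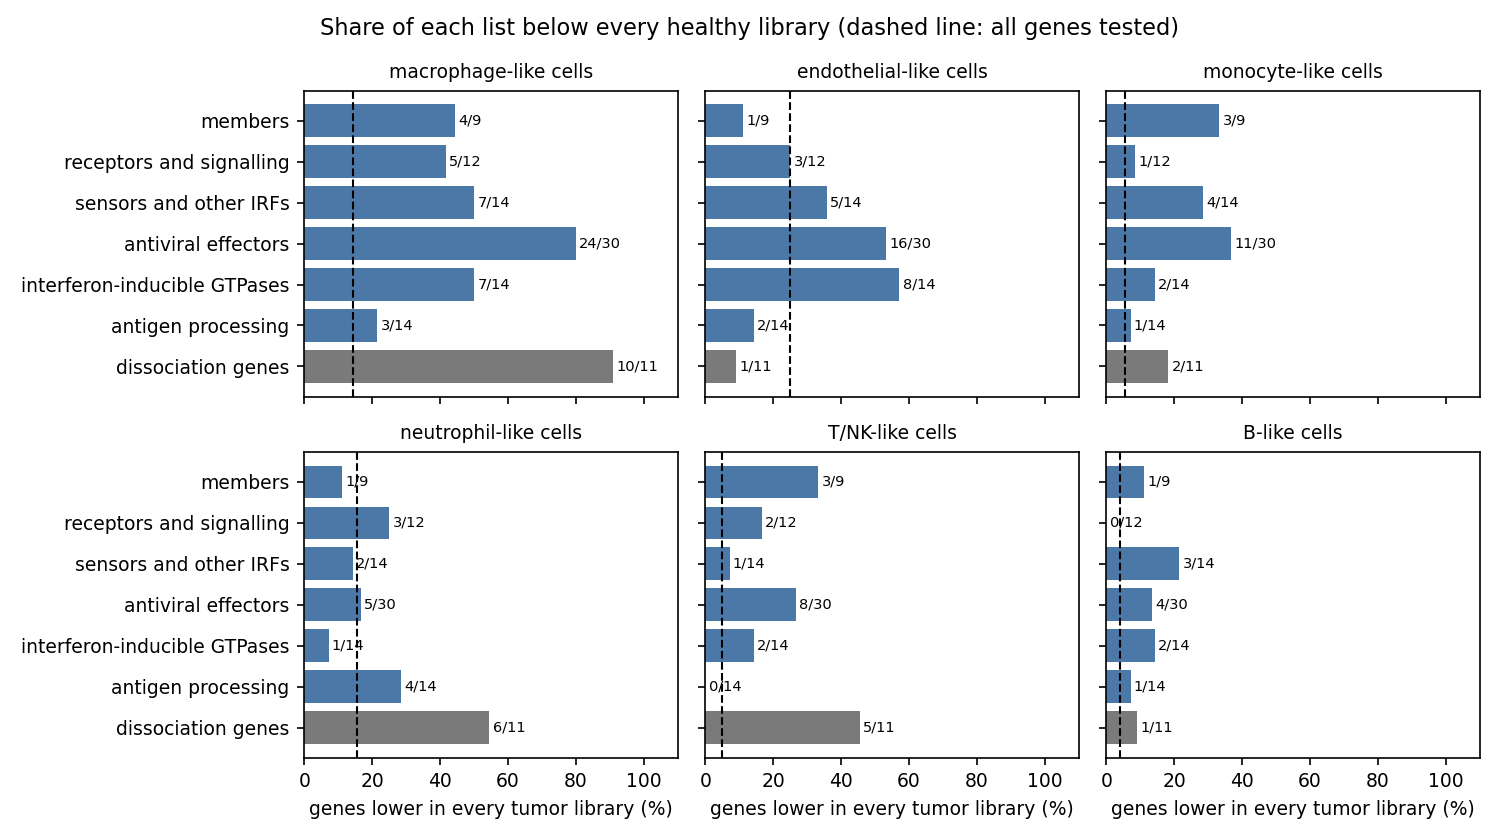
Share of each gene list lower in every tumor library than in every healthy one, by cell class, as percent of the list's genes in the files, with counts at the bars; the dashed line is the share among all genes with a mean of at least 5 CPM, and grey bars are dissociation genes. In macrophage-like cells 24 of 30 antiviral effectors and 10 of 11 dissociation genes were lower, against 14.4% of all genes.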

How the data were processed

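Single-cell RNA was measured in 7 mouse liver libraries with the 10x Genomics 3' kit. The deposited matrices hold raw UMI counts per gene and barcode, which the authors made with Cell Ranger (6.0 in the submitters' processing notes, while the file headers name an earlier release), with no cell filter. The build is not given in the sources used here, so positions are those of GENCODE M21 and RefSeq GRCm38.p6.

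Barcodes were called as cells above the 99th percentile of the top 3000 divided by 10, or at 500 UMIs or more where the profile differed from ambient RNA (barcodes ranked 45000 to 90000; 10000 draws; adjusted p of 0.01; at most 20000 tested a library). Cells over 500 UMIs with at most 20% mitochondrial UMIs were kept. Scrublet's own threshold marked at most 0.0631% of cells, so it had not worked, and the highest scores were removed at 0.8% per 1000 cells (8856 cells). Leiden clustering at resolution 1 used 2000 variable genes without the listed genes, 40 components and 15 neighbours. Clusters were named from 143 markers of 18 classes where the mean log2 fold over other clusters was at least 1.0, with a lead of 1 and 3 markers up 2-fold at 10 CPM. These limits were chosen once the data were known. Cells of clusters 20 and 26, kept as B-like and T/NK-like, held 52.1% and 42.8% haemoglobin UMIs.

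Levels used classes of at least 20 cells in a library, and counts of members at least 3 libraries on each side (2 where one was left out). A gene counted as lower where every tumor library was below every healthy one. The background was taken over genes with a mean of at least 5 CPM (the same genes where a library was left out), while lists were counted over all their genes in the files. The labels gave 0 groups, so no test was made. The members, lists and comparisons were chosen with earlier results of these data known. Named genes were the 9 members and, for each list and class, at most 4 genes, those apart by the widest gap first and then by level. From these a few are printed. Mx1 and Mx2 were not analysed here. Monocyte-like and conventional dendritic-like cells were added as classes after seeing the data. The code of 2 steps was run on simulated data: 1 of 2000 empty droplets and 200 of 200 cells were called, and 18 of 18 classes were named. The empty droplets were drawn from the ambient profile used for calling and the cells from a pooled cell profile of NEJ654. Each simulated class had only its own markers raised. The outcome was thus largely set by the design, and it does not measure how well real cells were called or named. The work used scanpy 1.11.5 with leidenalg 0.10.2 under Python 3.11.15, and edgeR 4.0.16 for TMM factors.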

Additional observations from a re-analysis of the deposited data

Results flagged for a closer look

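A library was flagged where its gap over the range passed Dixon's critical value for 4 samples. Independent normal samples pass that value in about 5% of cases. These libraries were not treated as replicates, and the sum over all cells shares cells with the classes, so no chance rate is read here. Among groups of 4 tumor libraries, 7 of 72 combinations of member and class had 1 library this far from the other 3. NEJ634 was the high library in 4 of them: Irf1 over all cells (88.8 CPM, next 43.5), Iigp1 in neutrophil-like cells (3.16, next 0.578), and Iigp1 (7.45, others at 0) and Irgm1 (14.4, next 3.45) in granulocyte precursor-like cells. The Iigp1 values rested on 5 and 16 UMIs and lay below the free RNA of NEJ634 (36.6 CPM), as Irgm1 did (15.4). NEJ709 was the high library for Ifit1 (14.8, others at 0) and Igtp (39.3, next 14.1) in B-like cells, of which it had 54, resting on 3 and 8 UMIs. Ifit1 in erythroid-like cells was low in NEJ687 (6.48, next 16.3).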

How the results depend on the processing

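The counts are of members lower in every tumor library unless stated. Over all cells the count of 8 became 5 under TMM and 5 under median-of-ratios scaling, and stayed 8 without each library in turn, with 0 to 1 higher. The share of all genes lower was then 35.7% to 52.4%, against 35.2% with every library. It was highest without NEJ634 (52.4%) and without NEJ638 (42.2%). The count was 7 with barcodes above the knee (32.0% of all genes lower), a mitochondrial limit of 10% (34.1%) or named classes only (35.8%). It was 6 with the mean over cells (34.5%). Poisson intervals that must not overlap also gave 7, and no share of all genes is given for that rule, here or by class. Requiring Poisson intervals not to overlap gave 0 in endothelial-like, monocyte-like, neutrophil-like, conventional dendritic-like, T/NK-like and B-like cells and 1 in macrophage-like cells. Endothelial-like cells gave 0 with barcodes above the knee (22.8% of all genes lower) and 2 with the mean over cells (22.9%). Macrophage-like cells gave 2 under median-of-ratios scaling (11.3%), and 3 without cluster 29 (10.4%) or at resolution 2 (9.82%). Neutrophil-like cells gave 0 in cluster 27 alone (6.52%). Conventional dendritic-like cells gave 0 at resolution 2 (5.76%) and 0 with ambient RNA subtracted (5.16%). B-like cells gave 2 with a mitochondrial limit of 10% (3.68%) and with the mean over cells (3.51%). They also gave 2 with totals that left out haemoglobin and mitochondrial UMIs (4.32%). Leaving out each library in turn gave 1 to 4 (endothelial-like), 4 to 6 (macrophage-like), 3 to 9 (monocyte-like), 1 to 9 (neutrophil-like), 1 to 4 (conventional dendritic-like), 3 to 6 (T/NK-like) and 1 to 3 (B-like). Members higher ranged from 0 to 1 in endothelial-like, 0 to 3 in conventional dendritic-like and 0 to 1 in B-like cells. The cause of these changes was not tested. Thinning to 500 in place of 1000 UMIs moved 280 shares (206 stayed) by more than their interval and reversed 0, and dropping the 5 CPM limit moved 4 background shares (12 stayed). Ambient subtraction could not be run for endothelial-like, neutrophil-like, T/NK-like and B-like cells, where too few libraries had an estimated ambient share low enough, nor the knee limit for neutrophil-like, conventional dendritic-like and B-like cells. Hepatocyte-lineage-like and erythroid-like cells had too few libraries on one side for a count. No paired analysis was possible because the labels give no replicate numbers. Depth limits the low members most: Ifit1 and Ifit3 rest on few UMIs in B-like and T/NK-like cells.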
